A study of Mus musculus with 6 samples.

Results

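Among the transcription factors that give embryonic mesenchyme its character, 8 genes were examined for chromatin accessibility in the presence and absence of the histone acetyltransferase HAT1, namely Prrx1, Twist1, Twist2, Snai2, Zeb1, Zeb2, Runx2 and Tbx15. Each gene was given a fixed window of the mouse genome (mm10) from 120 to 430 kb long that holds the gene and part of its surroundings, and a site was a member when its midpoint lay in a window. The windows held 261 of the 229903 sites of accessible chromatin in the table. They were chosen by gene and position and not by any measured value. Earlier results of these data were nonetheless known when the genes were chosen. Accessibility was measured by ATAC-Seq, in which a transposase cuts open chromatin and the reads at a site give its level, in primary mouse embryonic fibroblasts (MEFs). The groups were 3 HAT1+/+ lines (labelled HAT1 WT) and 3 HAT1-/- lines (labelled HAT1 KO) on the C57bl6 background. Each line was grown from a mid-gestation embryo after the internal organs had been taken out, so a line is a mixed culture of the remaining embryonic tissue and not 1 cell type, and HAT1 is missing from all of its cells and at all earlier stages. The table gives the log2 of the mean normalized reads of a site over the 3 lines of each genotype, as the authors computed it. No value of a single line was used here, so no spread between lines, no error and no test between genotypes can be given, and every difference below describes these genotype means only. The raw depth of the lines is unknown.

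These 8 genes encode proteins that bind DNA and set the program of mesenchymal cells, which are the loosely arranged, migrating cells of the embryo that form connective tissue, bone, cartilage and dermis. TWIST1 and TWIST2 are basic helix-loop-helix factors that bind E-boxes with E-protein partners, and SNAI2, ZEB1 and ZEB2 are zinc finger repressors that bind related E-boxes and silence epithelial genes such as E-cadherin during epithelial to mesenchymal transition. PRRX1 is a paired-type homeodomain factor of limb and craniofacial mesenchyme, RUNX2 is the factor needed for osteoblasts to form, and TBX15 is a T-box factor of skeletal and skin mesenchyme. Genes of this kind are often surrounded by many distal regulatory sites, so both the starts of transcription and the distal sites were described.

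The sequences of 5 sites away from the main starts are shown. Each had the lowest or the highest difference of its gene among sites with a mean of at least 10 normalized reads over the genotypes. They were taken from 14 sites so picked in the 7 genes other than Zeb1, after their values were seen. Each is the central 150 bases of the site, on the plus strand of GRCm38 (the assembly named mm10). Capitals mark short motifs, which were the AP-1 motif TGANTCA, the RUNX motif TGTGGT, the TEAD motif GGAATG, the E-box CATCTG, the E-box CACCTG and the T-box motif GGTGTGA. Both strands were searched, and a match on the other strand appears as its reverse complement. In the Twist2 sequence the T-box motif and an E-box share 1 base, and in the Prrx1 sequence no motif of the list was found.
Prrx1 downstream site, lower in HAT1-/- (chr1:163209214-163209363): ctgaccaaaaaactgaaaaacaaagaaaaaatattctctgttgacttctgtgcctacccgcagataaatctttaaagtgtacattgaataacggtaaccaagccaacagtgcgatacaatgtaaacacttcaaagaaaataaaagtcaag
Twist2 intronic site, lower in HAT1-/- (chr1:91823489-91823638): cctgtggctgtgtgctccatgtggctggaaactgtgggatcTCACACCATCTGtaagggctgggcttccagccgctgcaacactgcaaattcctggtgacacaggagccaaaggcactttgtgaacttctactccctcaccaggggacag
Zeb2 upstream site, higher in HAT1-/- (chr2:45126517-45126666): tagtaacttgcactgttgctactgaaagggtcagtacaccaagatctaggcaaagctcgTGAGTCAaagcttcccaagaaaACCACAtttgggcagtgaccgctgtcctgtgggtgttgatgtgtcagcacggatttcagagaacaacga
Runx2 intronic site, higher in HAT1-/- (chr17:44653237-44653386): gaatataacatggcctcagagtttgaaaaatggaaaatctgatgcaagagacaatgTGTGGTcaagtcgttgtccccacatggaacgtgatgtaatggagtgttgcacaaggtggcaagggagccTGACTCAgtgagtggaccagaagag
Tbx15 downstream site, higher in HAT1-/- (chr3:99372654-99372803): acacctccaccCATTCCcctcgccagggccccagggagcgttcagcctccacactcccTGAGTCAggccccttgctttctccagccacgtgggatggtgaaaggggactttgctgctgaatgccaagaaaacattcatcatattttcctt
Over all 14 picked sites, the same stretch held an AP-1 motif in 3 of the 7 with the highest and in 1 of the 7 with the lowest difference. All 3 of the former are shown above, and the 1 of the latter, in Zeb2, is not. In a longer stretch, the central 201 bp, the motif was found in 23.0% of all sites.

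The bases just before the start of transcription are shown for the paired genes Twist1 and Twist2, whose start sites were among the widest of the set. Promoter sequences of RefSeq (GRCm38.p6) were matched for 5 of the 8 genes, which were Prrx1, Twist1, Twist2, Zeb2 and Runx2. Each sequence is the 150 bases upstream of the start, on the strand of the gene, and no motif of the list above was found in either.
Twist1 (chr12:33957521-33957670, plus strand): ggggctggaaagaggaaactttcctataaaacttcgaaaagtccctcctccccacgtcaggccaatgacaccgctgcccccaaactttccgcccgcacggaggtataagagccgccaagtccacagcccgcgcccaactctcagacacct
Twist2 (chr1:91801311-91801460, plus strand): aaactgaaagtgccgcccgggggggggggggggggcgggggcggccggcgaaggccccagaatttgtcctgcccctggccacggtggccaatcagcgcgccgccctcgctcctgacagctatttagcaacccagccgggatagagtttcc
They hold 9 and 12 CpG dinucleotides, where the median of 32851 promoters was 4. An AP-1 motif is present in 4.24% of the same 150 bases of all promoters, a RUNX motif in 8.40%, a TEAD motif in 7.59%, CACCTG in 10.6%, CATCTG in 8.81% and the T-box motif in 1.92%.

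Over the 261 sites, the levels of the genotypes were close. The difference is given throughout as the log2 level in HAT1-/- cells minus that in HAT1+/+ cells, so 1 is a doubling and a value below 0 is a lower level in the knockout. Its median was 0.07 over the member sites, with quartiles of -0.26 and 0.38, and -0.06 over all sites of the genome, with quartiles of -0.37 and 0.25. The difference was above 0 at 149 member sites (57.1%), below 0 at 110 and at 0 at 2. Over all sites it was above 0 at 44.1%. Added over the member sites, the normalized reads were 7761 in HAT1+/+ and 7786 in HAT1-/- cells, a ratio of 1.00, where the ratio over all sites was 0.948. Measured from the median of all sites, the gene medians of Twist2 and Snai2, -0.05 and -0.01, became 0.01 and 0.05. Without sites under 8.73 mean reads they were 0.02 and 0.07. Divided by the ratio over all sites, the summed ratios of Prrx1 and Snai2, 0.966 and 0.965, became 1.02 each, so the small differences of these genes have no fixed sign. A lower level in a share of the cells and a lower level in every cell cannot be told apart in such bulk cultures.

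Large differences were found at few member sites. A level lower by a log2 difference of 1 or more was found at 9 sites (3.45%), where the share over all sites was 5.11%, and a level higher by as much at 10 (3.83%), where it was 2.82%. At a smaller difference of 0.58, 25 member sites were lower (9.58%, with 15.0% of all sites) and 39 were higher (14.9%, with 10.1% of all sites). The 9 lower sites lay in Tbx15 (4), Prrx1 (2), Twist2 (2) and Zeb2 (1), and the 10 higher sites in Runx2 (4), Prrx1 (2), Tbx15 (2), Twist2 (1) and Zeb2 (1). No site of Twist1, Snai2 or Zeb1 differed by that much in either direction.

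**Figure D1:**
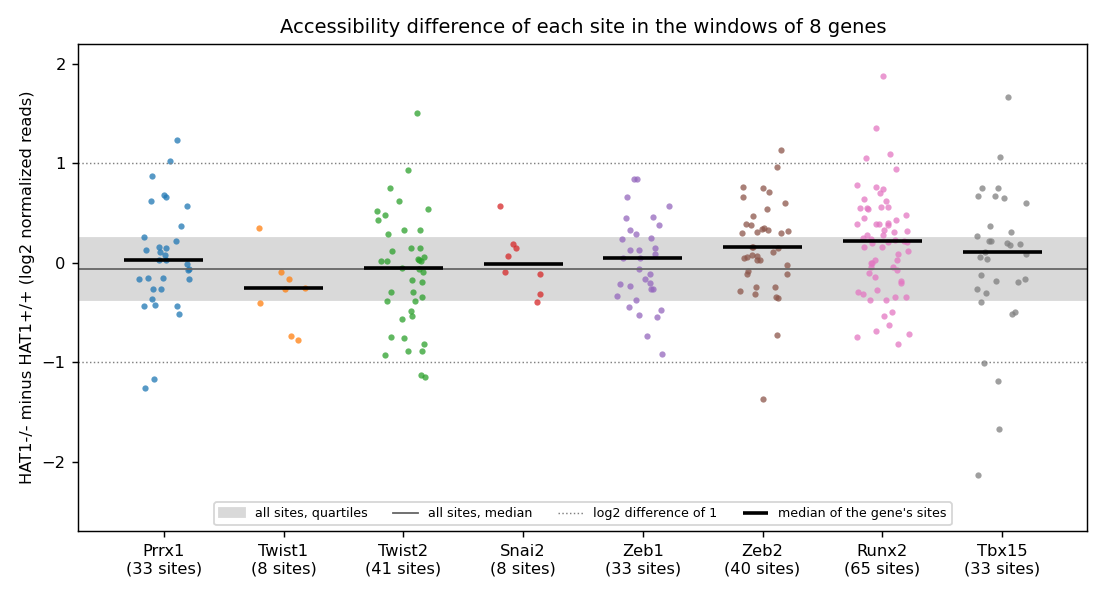
Each point is 1 site, placed by gene on the x axis and by its log2 difference (HAT1-/- minus HAT1+/+ normalized reads, genotype means of 3 lines) on the y axis, and the side-to-side scatter within a gene only separates the points. Black bars are gene medians, from -0.255 (Twist1) to 0.22 (Runx2), and the grey band holds the middle of all 229903 sites, from -0.37 to 0.25.

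Many of the large differences rest on few reads. All sites of the genome were divided into 4 equal classes by their mean reads over the genotypes, with limits at 8.73, 14.2 and 28.6 reads. The lowest class held 65 member sites, 6 of the 9 lower sites and 5 of the 10 higher ones. Of all sites in that class, 9.06% were lower and 7.64% higher by 1 or more. In the highest class these shares were 2.07% and 0.103%. The member medians from the lowest to the highest class were 0.09, 0.22, 0.045 and -0.02, and those of all sites were 0, -0.04, -0.08 and -0.08. The member median was thus nearer 0 at the 71 sites with the most reads. In the upper 2 classes together, 135 member sites had a median of 0.02 and all sites one of -0.08. There, 10 member sites (7.41%) were lower and 9 (6.67%) higher by 0.58 or more, with 11.6% and 4.79% of all such sites.

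**Figure D2:**
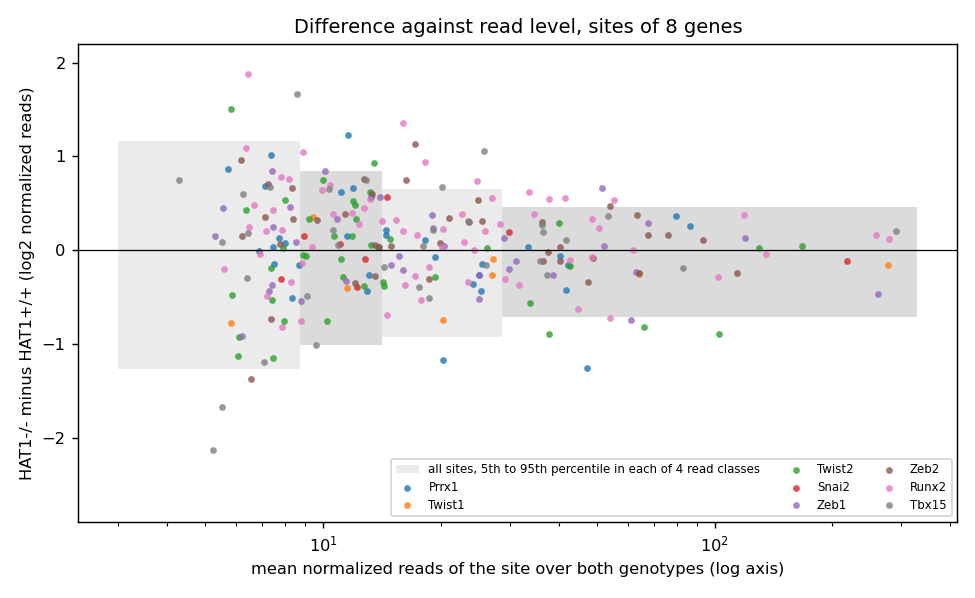
The x axis gives the mean normalized reads of a site over both genotypes on a log axis, and the y axis gives its log2 difference, with a colour for each gene. Grey boxes run from the 5th to the 95th percentile of all sites in each of 4 equal classes by reads. About 5% of all sites thus lie beyond each end. The boxes narrow from -1.27 to 1.17 in the lowest class to -0.71 to 0.46 in the highest. From the lowest class upwards, 6 of 65, 3 of 61, 8 of 64 and 12 of 71 member sites lie outside. Of the last, 6 lie below and 6 above.

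At the starts of transcription, every one of the 8 genes had an accessible site over its main start in both genotypes, and the differences there were small. The site over the Twist1 start had 292 normalized reads in HAT1+/+ and 261 in HAT1-/- cells (-0.16). Over the Twist2 start the level was 165 and 170 reads (0.04). Both differences were inside the range from -0.71 to 0.46, the 5th to 95th percentile of all sites of their read class, and so were those of the other 6 genes. The Snai2 start had 226 reads in HAT1+/+ and 209 in HAT1-/- cells (-0.11). The Zeb1 start had 68.1 and 58.1 reads (-0.23), the lowest difference of the 8. At the Zeb2 start the reads were 50.2 and 47.5 (-0.08). Each was lower in the HAT1-/- mean, as were 61.4% of all sites of that read class, whose median was -0.08. Over the Prrx1 start the reads were 44.6 and 39.9 (-0.16). The Tbx15 start had 271 and 311 reads (0.20), the highest difference, and at the distal Runx2 start both genotypes had 61.8 reads. Reads are per whole site, and the sites run from 447 to 1414 bp in width, so levels are compared between genotypes and not between genes.

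**Figure D3:**
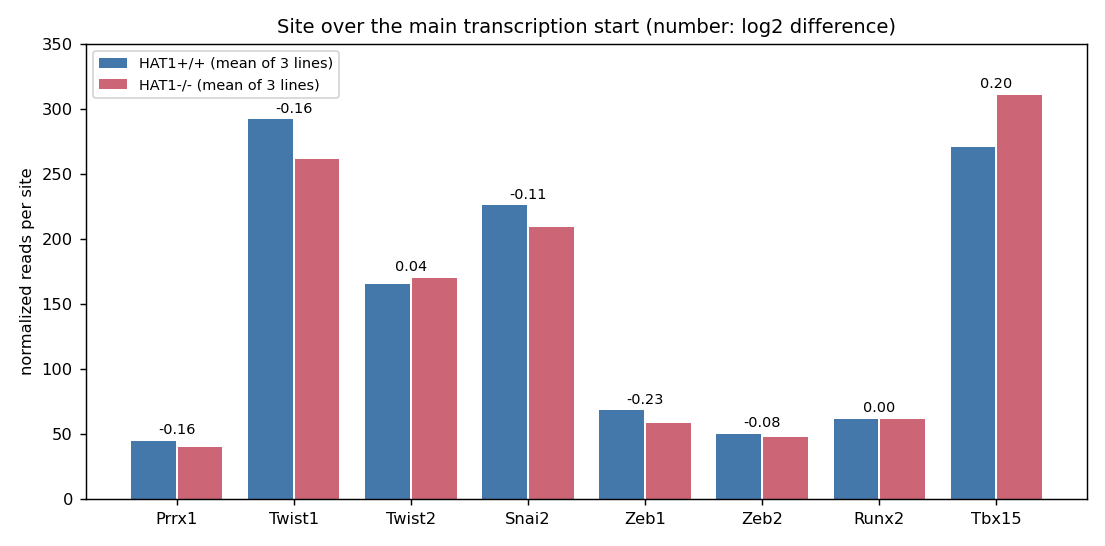
Bars give the normalized reads of the site over the main transcription start of each gene, as the authors' mean of 3 HAT1+/+ lines (blue) and of 3 HAT1-/- lines (red), and the number above each pair is the log2 difference. The differences run from -0.23 (Zeb1) to 0.20 (Tbx15), with 5 genes below 0, 2 above and Runx2 at 0, where 61.4% of all sites of the same read class were below 0.

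Twist1, on the plus strand of chromosome 12 from 33957671 to 33959829, had 8 sites, and 7 of them were lower in HAT1-/- cells. Its median difference was -0.255 and its summed reads were 473 in HAT1+/+ and 411 in HAT1-/- cells, a ratio of 0.868 and the lowest of the set. The site from 33958212 to 33958782, which overlaps an untranslated region of the same transcript, had 69.6 and 58.5 reads (-0.25). A site 23.9 kb downstream of the start, from 33981472 to 33981722, had 25.3 and 15.1 reads (-0.74). The highest of the sites with at least 10 mean reads, from 33967519 to 33967880, had 28.1 and 26.4 reads (-0.09), and the 1 site above 0 had 8.28 and 10.6 reads (0.35). No site was lower by 1 or more, so the low median of Twist1 came from small differences of 1 sign over few sites, which are close neighbours and not independent. Ferd3l, a basic helix-loop-helix gene, is the other protein-coding gene of the window.

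Twist2, on the plus strand of chromosome 1 from 91801461 to 91848028, had 41 sites, the densest of the windows at 24.1 sites per 100 kb. The differences were divided, with 20 sites above 0 and 21 below, and the median was -0.05. The summed reads were nonetheless lower in HAT1-/- cells, with 1043 in HAT1+/+ and 919 in HAT1-/- (ratio 0.882). The 8 Twist2 sites with over 28.6 mean reads had a ratio of 0.818, and the other 33 one of 1.00. The intronic site from 91823201 to 91823925, which overlaps an exon of the noncoding gene Gm29101 and lies 22.1 kb downstream of the start, had 133 reads in HAT1+/+ and 72.0 in HAT1-/- cells (-0.89). Downstream of the gene, the site from 91858128 to 91858723 had 84.4 and 47.8 reads (-0.82). A further site, from 91872390 to 91872891, had 49.2 and 26.5 reads, the same difference of -0.89 as the intronic site. In reads, these 3 sites had the largest losses of the window. The intronic site from 91816523 to 91817085 had 129 and 131 reads (0.02), so a well-covered neighbour in the same intron was nearly equal in the genotypes. The highest difference among sites of at least 10 mean reads was 0.93, 58.2 kb upstream of the start, at 9.32 and 17.8 reads. These sites besides the first and the last were chosen after their values were seen.

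Snai2, on the plus strand of chromosome 16 from 14705852 to 14709385, had 8 sites, 4 above and 4 below 0, and a median of -0.01. Its levels added to 320 reads in HAT1+/+ and 309 in HAT1-/- cells (ratio 0.965), most of them in the start site. The lowest of its sites, 4.28 kb upstream of the start, had 13.8 and 10.6 reads (-0.39), and the highest, in the first kilobase of the gene, had 11.7 and 17.4 (0.57). No Snai2 site was thus past 0.58 in either direction.

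Zeb2, on the minus strand of chromosome 2 from 44983632 to 45117395, had 40 sites, of which 28 were higher in HAT1-/- cells and 12 lower. Its median was 0.155 and its summed reads were 1129 and 1206 (ratio 1.07). The level at the main start was given above, and 3 sites over inner starts were described. One, from 45110067 to 45110553, had 72.0 reads in HAT1+/+ and 80.4 in HAT1-/- cells (0.16). Next to it, the site from 45111068 to 45111284 had 21.1 and 26.0 (0.30). The third, from 45112933 to 45113412, had 69.6 and 58.9 (-0.24), and it also lies in the antisense transcript Zeb2os. The site farthest above 0, whose sequence with an AP-1 and a RUNX motif is shown above, lies 9.20 kb upstream and had 10.8 and 23.6 reads (1.13). The lowest of the sites with at least 10 mean reads, in an intron from 45085724 to 45085985, had 13.5 and 10.6 (-0.35). The site with the most HAT1+/+ reads, from 44956214 to 44956706 in the intergenic region downstream, had 124 and 105 (-0.24). The 14 sites with over 28.6 mean reads had a median of 0.005, with 7 above 0, and the other 26 one of 0.315, with 21 above 0, so the higher sites of Zeb2 were mostly those with fewer reads. All sites of the genome in the same read ranges had medians of -0.08 and -0.04, with 61.4% and 52.9% below 0. The Zeb2 median was thus the higher in both ranges.

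Zeb1, on the plus strand of chromosome 18 from 5591860 to 5775467, had 33 sites, 17 above and 16 below 0. The median of 0.05 turned to -0.11 when only the gene body and promoter sites were taken, and to -0.085 without sites under 8.73 mean reads. The summed reads were 1123 in HAT1+/+ and 1038 in HAT1-/- cells (ratio 0.924). The largest losses in reads were at 2 adjoining sites beyond the end of the gene, 227 and 228 kb downstream of the start. The one from 5819688 to 5820775 had the most reads of the window, 304 in HAT1+/+ and 220 in HAT1-/- cells (-0.47). Its neighbour, from 5818890 to 5819237, had 76.6 and 45.9 (-0.74). Within the gene the sum was instead slightly higher in HAT1-/- cells, at 420 and 443 reads (ratio 1.06). The highest difference was at an intronic site from 5680211 to 5680423, which had 7.26 and 13.0 reads (0.84). The intronic site from 5688385 to 5688820 had 39.9 and 63.1 (0.66) and was chosen after its value was seen.

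Prrx1, on the minus strand of chromosome 1 from 163245119 to 163313710, had 33 sites with a median of 0.03, which was -0.11 when only the gene body and promoter sites were taken and -0.06 without sites under 8.73 mean reads. The 17 sites above 0 and 16 below gave summed reads of 731 and 706 (ratio 0.966). The lowest of the sites, from 163208925 to 163209651, whose sequence is shown above, lies in the intergenic region 104 kb downstream of the start. It had 66.7 reads in HAT1+/+ and 27.9 in HAT1-/- cells (-1.26), a fall to 0.418 of the HAT1+/+ level in the genotype means, and it was the 1 member site with over 28.6 mean reads that was lower by 1 or more. A second intergenic site, from 163239607 to 163240160, had 28.1 and 12.5 reads (-1.17). The distal site upstream of the gene with the most HAT1+/+ reads, from 163361281 to 163362512, had 78.8 and 94.4 (0.26). The highest difference, 1.23, was at an intronic site of 6.92 and 16.2 reads, 4.86 kb into the gene, that overlaps the noncoding gene Gm37644. The 5 consecutive sites from 163285155 to 163299036 inside the gene were all lower, with differences from -0.51 to -0.26, and were chosen after their values were seen.

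Runx2, on the minus strand of chromosome 17 from 44495987 to 44814797, had 65 sites, the most of the set. In HAT1-/- cells 42 of them were higher, 21 lower and 2 equal, the median was 0.22, and the summed reads were 2055 and 2238 (ratio 1.09, the highest of the set). Runx2 is read from a distal and a proximal promoter that give proteins with different first residues. The site over the distal start, from 44814644 to 44815206, was equal in the genotypes. At the proximal start the site from 44735724 to 44736610 had 103 reads in HAT1+/+ and 134 in HAT1-/- cells (0.38). Close to it, the site from 44734472 to 44734840 had 43.1 and 54.2 reads (0.33), and that from 44735514 to 44735664 had 21.0 and 14.5 (-0.53). Both of the better covered sites among these were thus somewhat higher. A further site, from 44737954 to 44738727 and 1306 bp from the nearest annotated start, had 112 and 91.8 reads (-0.29). The signs around the proximal start were therefore mixed. The site over the distal start and the one from 44735724 also differ in composition, with 0 and 0.921 of the CpG dinucleotides that their base content would give. The start of Supt3, the oppositely directed neighbour that overlaps Runx2, lay in a site from 44776735 to 44777848 with 244 and 272 reads (0.16).

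An unbroken run of higher Runx2 sites lay at the end of the gene. From 44490494 to 44569094, 78.6 kb that hold the 3′ end of the gene and its last introns, 17 consecutive sites were all higher in HAT1-/- cells, by 0.03 to 1.88 with a median of 0.39. Their reads added to 480 in HAT1+/+ and 575 in HAT1-/- cells (ratio 1.20). The stretch held 17 of the 42 higher Runx2 sites, 5 of the 11 higher by 0.58 or more and 2 of the 4 higher by 1 or more, and the others lay elsewhere in the window. It was chosen after its values were seen. Over the genome, 12 runs of 17 or more consecutive higher sites were found, which hold 296 sites or 0.129% of all. At 6 of the 17 sites the mean difference of 11 sites centred on them was above 0.58, which was the case at 162 of all sites (0.0705%), and the highest such mean was 0.63. The median level in the stretch was 10.7 reads in HAT1+/+ and 13.5 in HAT1-/- cells, and 10 of the 17 sites were below the genome's median level. Its best covered site, from 44500245 to 44500884, which had the most HAT1+/+ reads of the whole window, had 267 and 290 (0.12). In the middle of the gene the site from 44592317 to 44593105 had 67.2 and 40.8 reads (-0.72), the lowest of the sites with at least 10 mean reads. The highest was at an intronic site from 44653191 to 44653431, which had 9.0 and 23.1 reads (1.36) and whose sequence above holds a RUNX motif and an AP-1 motif.

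**Figure D4:**
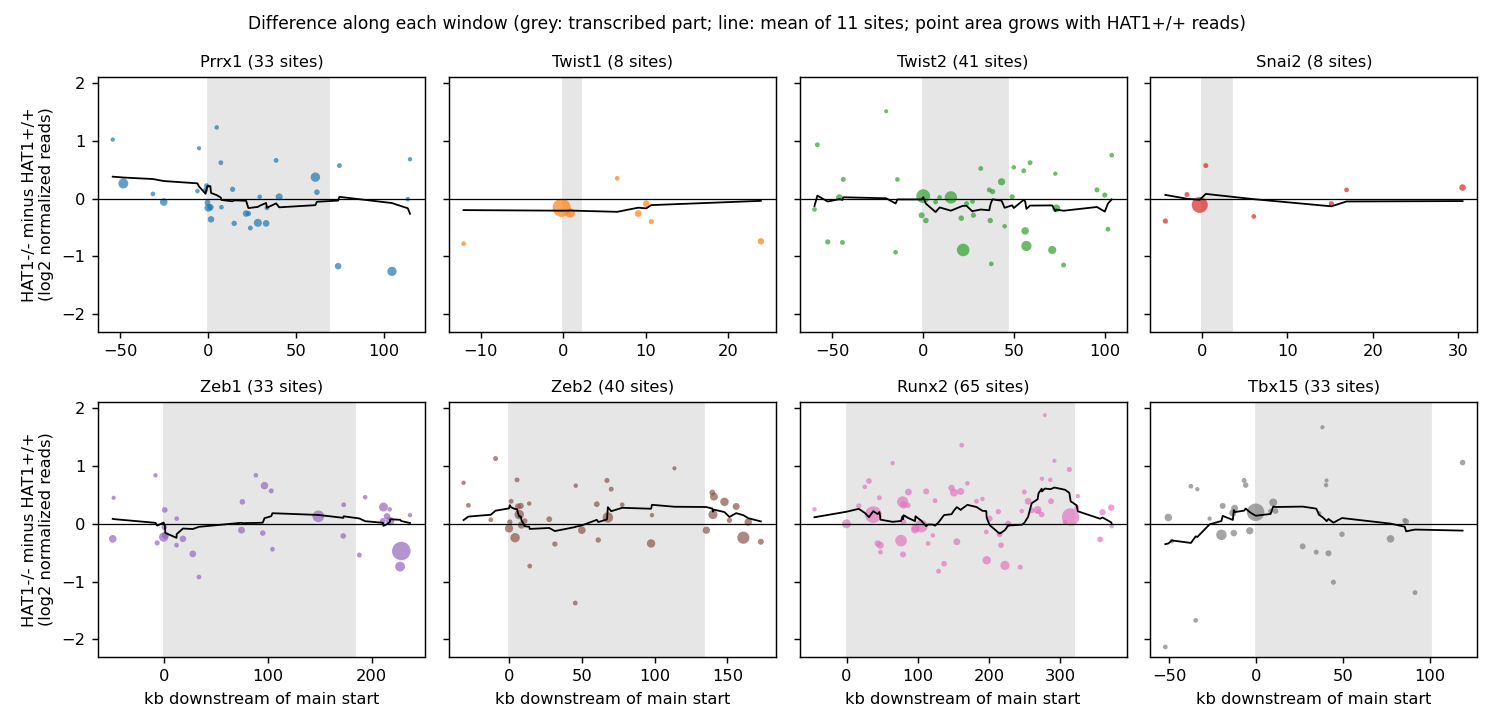
In each panel the x axis gives the distance of a site's midpoint from the main transcription start in kb, positive in the direction of transcription, and the y axis the log2 difference, with a point per site whose area grows with its HAT1+/+ reads. Grey marks the transcribed part downstream of the main start and the line is the mean of 11 consecutive sites, which reaches 0.63 towards the end of Runx2 and stays between -0.352 and 0.378 in the other 7 windows.

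Tbx15, on the plus strand of chromosome 3 from 99240381 to 99354259, had 33 sites, 20 above and 13 below 0, with a median of 0.11 and summed reads of 889 and 959 (ratio 1.08). Its differences were the most widely spread of the set, with an SD over sites of 0.748, where that of all member sites was 0.545. The upstream start, from 99240060 to 99240811, had 34.1 reads in HAT1+/+ and 38.9 in HAT1-/- cells (0.19), close to the difference of 0.20 at the main start. A site next to an inner start, from 99295346 to 99295654, had 21.9 and 15.3 reads (-0.51). The lowest differences were upstream, inside the neighbouring gene Wars2, which encodes the mitochondrial tryptophanyl-tRNA synthetase. There the sites from 99201481 to 99201622 and from 99218926 to 99219168 had 8.51 and 8.40 reads in HAT1+/+ cells and 1.95 and 2.64 in HAT1-/- cells (-2.13 and -1.67). The widest gain was as large, at an intronic site from 99291959 to 99292107 with 4.11 and 13.1 reads (1.67). These levels are so low that a few reads decide the difference. The highest difference among sites of at least 10 mean reads was at an intergenic site from 99372439 to 99373018, 119 kb downstream of the main start, with 16.7 and 34.8 reads (1.06), whose sequence with a TEAD and an AP-1 motif is shown above.

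The 67 member sites within 3 kb of an annotated start had a median of -0.06, and the 194 others 0.115, a difference between the medians of -0.175. It was -0.14 when promoters were taken as 1 kb and -0.075 when only starts of protein-coding transcripts counted. The order was not the same in every gene. Promoter and other sites had medians of -0.155 and 0.11 in Prrx1, -0.315 and 0.02 in Twist2, -0.20 and 0.09 in Zeb1, 0.095 and 0.155 in Zeb2 and 0.095 and 0.23 in Runx2. In the remaining 3 genes the promoter sites had the higher median. The medians were -0.205 and -0.33 in Twist1 (2 and 6 sites) and 0.07 and -0.09 in Snai2 (3 and 5 sites). They were 0.19 and 0.075 in Tbx15 (13 and 20 sites). The order in Twist1 and Snai2 thus rests on few sites. Over all sites of the genome the medians of the same classes were -0.07 and -0.05. By position, the 44 sites upstream of the genes had a median of 0.075, the 162 in the gene bodies 0.07 and the 55 downstream 0.06. Their summed reads differed more, with ratios of 0.978 upstream, 1.04 in the gene bodies and 0.908 downstream, where the lower sites of Prrx1, Twist2 and Zeb1 described above lie.

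The study looked for long domains that are less accessible without HAT1, and the 8 windows were examined for them. A domain site was taken here as a site whose mean difference over 25 consecutive sites was below -0.58, which held for 2.25% of sites outside chromosome Y (5183 of 229867). None of the 261 member sites met it, and the 25-site means in the windows ran from -0.255 at Twist1 to 0.326 at Runx2. With a limit of -0.4, or with 11 sites in place of 25, the count was also 0. The nearest domain site lay 2.13 Mb from the Twist2 window, 2.32 Mb from that of Zeb2, 2.42 Mb from that of Runx2, 6.29 Mb from that of Tbx15 and 24.7 Mb from that of Snai2. The surroundings of the member sites had a median GC content of 42.2% over 200 kb, a median of 114 sites and 5 protein-coding starts within 500 kb, where the medians of all sites were 44.2%, 132 and 9. The median width was 252 bp in the members and 255 bp over all sites.

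The motifs searched were about as frequent in the member sites as elsewhere. In the central 201 bp, the AP-1 motif was found in 72 member sites (27.6%), where it was in 23.0% of all sites. RUNX motifs were in 21.5% of member sites and 19.7% of all, CATCTG in 23.4% and 19.6%, CACCTG in 11.1% and 10.8%, the TEAD motif in 14.9% and 15.6%, the T-box motif in 4.21% and 3.38% and the homeobox motif TAATTA in 2.68% and 2.46%. By gene, the AP-1 motif was found in 22 of 65 Runx2 sites, 18 of 40 Zeb2 sites and 4 of 8 Snai2 sites. In the other genes it was in 8 of 33 Zeb1, 7 of 33 Tbx15, 8 of 41 Twist2, 4 of 33 Prrx1 and 1 of 8 Twist1 sites. Member sites with the AP-1 motif had a median difference of 0.15 and those without it 0.05, and for the RUNX motif the medians were 0.175 and 0.05. Over all sites they were -0.04 and -0.06 for either motif. Runx2 and Zeb2, the genes with the highest medians, held 22 and 18 of the 72 member sites with AP-1. They held 16 and 11 of the 56 with RUNX. Motif and gene were thus not separated in these medians.

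The 8 genes were set beside 30 other transcription factor genes of mesenchyme, each with 50 kb on either side. Their 765 sites, none of them shared with the 8 windows, had a median of -0.10, and 25 of the 30 gene medians were below 0 and 5 above. Medians below 0 were common, and were found in at least 66.3% of the 17748 protein-coding gene windows described below. Of these sites 40 were lower by 1 or more (5.23%) and 13 higher (1.70%), and the ratio of summed reads was 0.926. Among the 26 genes with at least 10 sites, the lowest medians were those of the homeobox genes Msx2 (-0.30, 17 sites) and Msx1 (-0.295, 12 sites), followed by Dlx5 (-0.27, 17 sites) and Id1 (-0.27, 23 sites), an inhibitor of helix-loop-helix factors. The highest were those of Pitx1 (0.16, 21 sites), a hindlimb homeobox gene, Runx1 (0.13, 69 sites), the paralog of Runx2, and Tcf4 (0.05, 74 sites), which encodes an E-protein. Neither list had a site in a domain. Windows drawn in the same way around 17748 protein-coding genes with at least 8 sites gave gene medians from -0.27 at the 5th percentile to 0.18 at the 95th. In that order Twist1 stood at the 6.20 percentile, Twist2 at 50.3, Snai2 at 65.6, Zeb1 at 66.3, Prrx1 at 69.1, Tbx15 at 88.4, Zeb2 at 92.9 and Runx2 at 97.0, so 7 of the 8 lay between the 5th and the 95th. The windows of neighbouring genes share sites, and these places are a description.

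**Figure D5:**
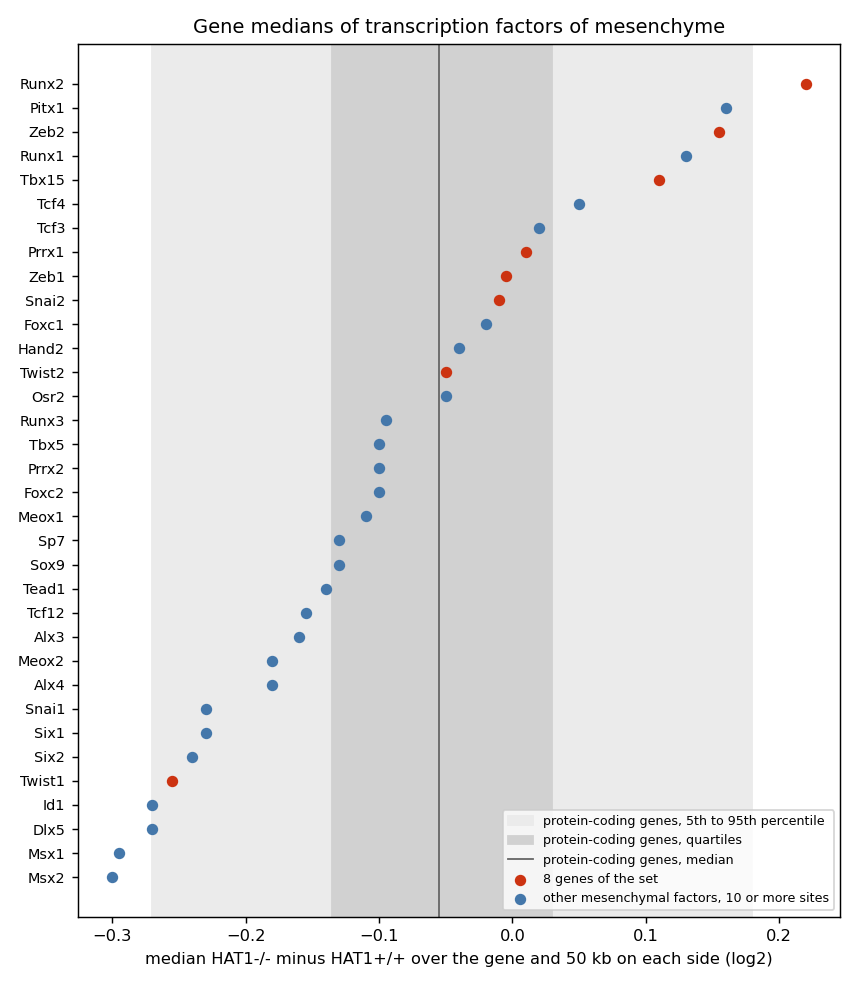
The x axis gives the median log2 difference of the sites in a gene and 50 kb on each side, and each row is 1 gene, with the 8 genes in red and the 26 other factors with at least 10 sites in blue. The light and dark grey bands hold the 5th to 95th percentile (-0.27 to 0.18) and the quartiles (-0.135 to 0.03) of 17748 protein-coding genes, and Runx2 lies above the light band while Msx1 and Msx2 lie below it.

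The label of the cells was checked against the starts of marker genes. The level of a marker is the sum of the reads over all of its sites within 1 kb of the start. All 12 fibroblast markers had an accessible site within 1 kb of the start, with HAT1+/+ levels from 4.66 reads (Lum) to 626 (Vim) and HAT1-/- levels from 11.4 to 648. Of 7 epithelial markers 4 had a site, and Krt5, Krt14 and Esrp1 had none. The highest epithelial level was that of Cldn4, with 38.3 reads in HAT1+/+ and 35.3 in HAT1-/- cells over 2 sites. All 4 endothelial markers, 4 of 5 blood markers (Gata1 had none), all 3 muscle markers and 2 of 5 neural markers had a site too. The endothelial levels were 11.8 to 115 reads in HAT1+/+ and 21.9 to 78.7 in HAT1-/- cells. The highest HAT1+/+ levels were 73.0 reads among blood (Cd68), 124.5 among neural (Tubb3) and 11.7 among muscle markers (Des). With a missing site taken as 0, the HAT1+/+ medians were 155 for fibroblast, 52.0 for blood, 0 for neural and 11.2 for muscle markers. Sites at those starts show open chromatin in some of the cells and not expression, and their part in the differences above was not tested.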

How the data were processed

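The ATAC-Seq levels of 6 primary MEF lines were used, 3 of each HAT1 genotype, grouped by the genotype in the labels. The authors aligned reads to mm10, called peaks and compared genotypes with DiffBind, and the submitters' processing notes name Bowtie2, MACS2 and DiffBind 2.14.0. The consensus rule and the library normalization are not given in the sources used here. The deposited levels are log2 means of normalized reads over the lines of a genotype. The authors' columns of log2 fold change, p-value and FDR hold their own comparison and were not used, and neither was the mean over all lines. Depth per line is unknown, so no interval is given.

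From the 2 genotype means, the difference, medians, counts past 1 and 0.58, sums of reads and means of 25 sites were computed for each window. Starts and features came from GENCODE vM21 on GRCm38. Motifs were searched on both strands. In each gene the text names the site nearest the main start, that with the most HAT1+/+ reads, and the lowest and highest differences among sites of at least 10 mean reads, and of the other factors the 3 lowest and 3 highest medians with at least 10 sites. Sites named beside these were chosen after their values were seen. The members and gene lists were chosen with earlier results of these data known. Summaries were tested on simulated data. Python 3.11.15, pandas 2.3.3, numpy 2.4.6, pysam 0.24.0 and matplotlib 3.10.9 were used.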

Additional observations from a re-analysis of the deposited data

How the results depend on the processing

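No paired analysis was possible because the levels are genotype means, and for the same reason no line could be left out. The alternatives were means in place of medians, centring or scaling on all sites, 1 kb or protein-coding promoters, a flank of 100 kb for the other genes, 11 sites or a limit of -0.4 for domains, a limit of 0.58, sites of the gene body and promoters only (171 of 261), and sites of at least 8.73 mean reads only (196 of 261). Of 78 values recomputed, 68 stayed within 0.1 of the reported value or, for counts, within 1.5 times. Some of these could not do otherwise. Centring moves every median by the same 0.06, and dividing summed ratios near 1 by 0.948 also moves them by less than 0.1. A change of sign within 0.1 was counted as staying, so the 68 are no measure of how firm the signs are. The count of sites lower by 1 or more, 9, became 25 at 0.58, 3 without low sites and 4 in gene bodies and promoters. The count of higher sites, 10, became 39, 5 and 6. With gene bodies and promoters only, the medians of Prrx1 and Zeb1 turned to -0.11 each, that of Snai2, near 0, became 0.07, and the summed ratio of Zeb1 went from 0.924 to 1.03. The lower pair downstream of Zeb1 is left out there. Without low sites the Zeb1 median turned to -0.085, and the medians near 0 of Prrx1, Twist2 and Snai2 also changed sign, to -0.06, 0.02 and 0.07. The cause was not tested. Precision is limited by reads per site, and 65 of the 261 sites had under 8.73 mean reads. It also depends on the spread between lines, which the genotype means do not show, so well-covered sites have no known error either.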
